A study of Rattus norvegicus with 9 samples.

Results

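Left ventricles of reacclimated rats were compared with left ventricles of rats acclimated to heat for the first time, both taken after 2 d at 34 °C. Reacclimated rats had earlier spent 1 mo at 34 °C and 1 mo of deacclimation at 24 °C, and first-time rats had neither. Both groups are 2 of the 9 samples of a study of rat hearts, chosen by their titles. Further groups are used beside them. These are the same pair of histories after acute heat stress (41 °C for 2 h, then 1 h of recovery at 24 °C), the deacclimated rats, which had 1 mo at 34 °C and 1 mo at 24 °C with no return to the heat, and the untreated control. Rats acclimated for 1 mo at 34 °C, further rats with 1 mo of acclimation followed by heat stress and heat-stressed rats that were never acclimated complete the series. Per the labels, RNA of individual animals was combined into 3 pools (6 animals) per group, and each group is deposited as 1 value per array row. The labels used here do not state the strain, the sex or the age of the rats.

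Heat acclimation is the adjustment of an animal to weeks in a warm environment, with lasting changes in heart function, metabolism and the stores of protective proteins. It is lost when the animal returns to the cool and is known to come back faster on a second exposure, which is often described as a memory of heat. In the rat heart, acclimation is known for slower and more economical contraction and for protection against other stresses such as loss of blood flow. The comparison of both groups asks which array rows differ between hearts with the same latest 2 d in the heat and a different history.

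The arrays hold 87 rows in the deposited tables, and 0 of the 87 row names could be matched to a gene. Rows therefore keep their array names, no role is given to any of them, and no cardiac marker could be checked. A value is a log2 ratio to the untreated control, which is 0 by definition. The difference between 2 groups is the difference of their log2 ratios, in which the control cancels. With 1 value per group there is no replicate and no test, and all differences between groups below are sizes. A row is called different at 2-fold or more, a log2 difference of at least 1. A second table gives array intensities on a linear scale, from -645.3 to 29316 in reacclimated rats and from -1145 to 58213 in first-time rats. The number of arrays limits the precision.

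In reacclimated hearts 16 rows were at least 2-fold higher than in first-time acclimated hearts (18.4% of 87) and 6 rows were at least 2-fold lower (6.90%). The higher rows were A022, A061, R516, R570, R208, R177, R087, R590, A018, R520, R332, A017, R050, R134, A034 and A014. The lower rows were 849R, R635, R637, R724, A046 and R045. The log2 difference went from 2.75 (A022) to -1.70 (849R), with a median over all rows of 0.24 and quartiles of -0.49 and 0.81. In all, 52 rows lay above 0 and 35 below it, and 38 rows were less than 1.5-fold apart.

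**Figure D1:**
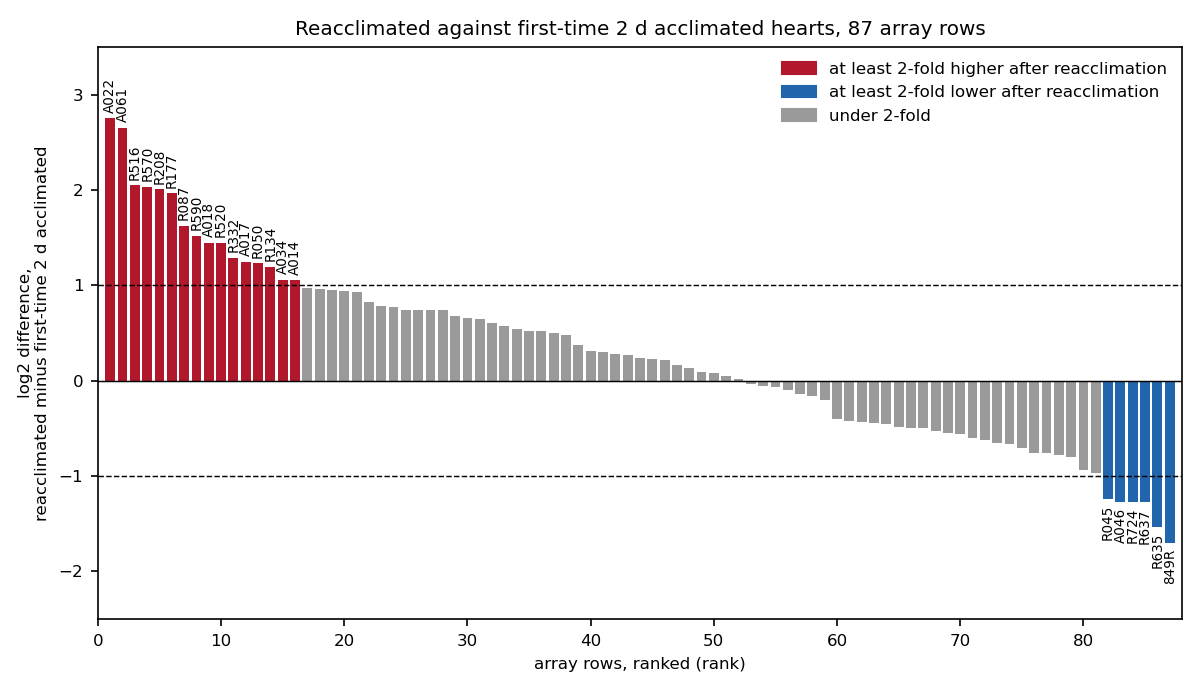
Log2 difference of each of the 87 array rows, reacclimated minus first-time 2 d acclimated hearts, as bars ranked from highest to lowest; dashed lines mark 2-fold. The 16 rows at least 2-fold higher (red) reach 2.75 and the 6 rows at least 2-fold lower (blue) reach -1.70, with no replicates behind any bar.

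The edge of the threshold was dense on the higher side. A034 and A014, both with a difference of 1.05, stood just inside, and R158 (0.97), A067 (0.96) and R240 (0.96) just outside. After each group was centred on its own median, A034 and A014 fell below 2-fold, and 14 rows were higher and 8 lower. On the lower side R045 (-1.24) stood just inside, and S145R (-0.97), S62R (-0.94) and R039 (-0.80) just outside. The smallest differences were those of A039 (0.01), A037 (-0.03), R198 (0.05), A019 (-0.05) and R105 (-0.06).

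The intensity table was then read for the same rows. An intensity below 0 was taken as one not above background, although no label says so. Of the 16 higher rows, 12 had intensities above 0 in both groups. After scaling of each sample to its median, 9 of the 12 were at least 2-fold higher, 2 were higher by less (A017 and A034) and R050 had the opposite sign. All 4 remaining rows (A061, R177, R520 and R332) were below 0 in first-time hearts, and A061 and R332 in reacclimated hearts too. Of the 6 lower rows, R635, R637, A046 and R045 were at least 2-fold lower by scaled intensity, and 849R and R724 were below 0 in reacclimated hearts.

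Over the 74 rows with an intensity above 0 in both groups, both tables ran along each other, with r = 0.784 and Spearman's rho = 0.841 across rows. These rows share their arrays, so the correlation describes both tables and is no replication. Scaled intensity gave 16 rows higher and 22 lower, where the log2 ratios gave 16 and 6. Its median difference was -0.45, against 0.24 in the log2 ratios, so the intensity table placed more rows lower in reacclimated hearts. The intensity column of the first-time group stood apart in form. In it 59 values carry 2 decimals, as no value of any other group does, and its highest value, 58213, lies above the highest value of each other group (24648 to 37484). In the brightest 25% of rows (22 rows), ranked by the 7 other groups, the median difference was -0.99 by scaled intensity and -0.29 by log2 ratio. The part of these features in the differences was not tested.

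**Figure D2:**
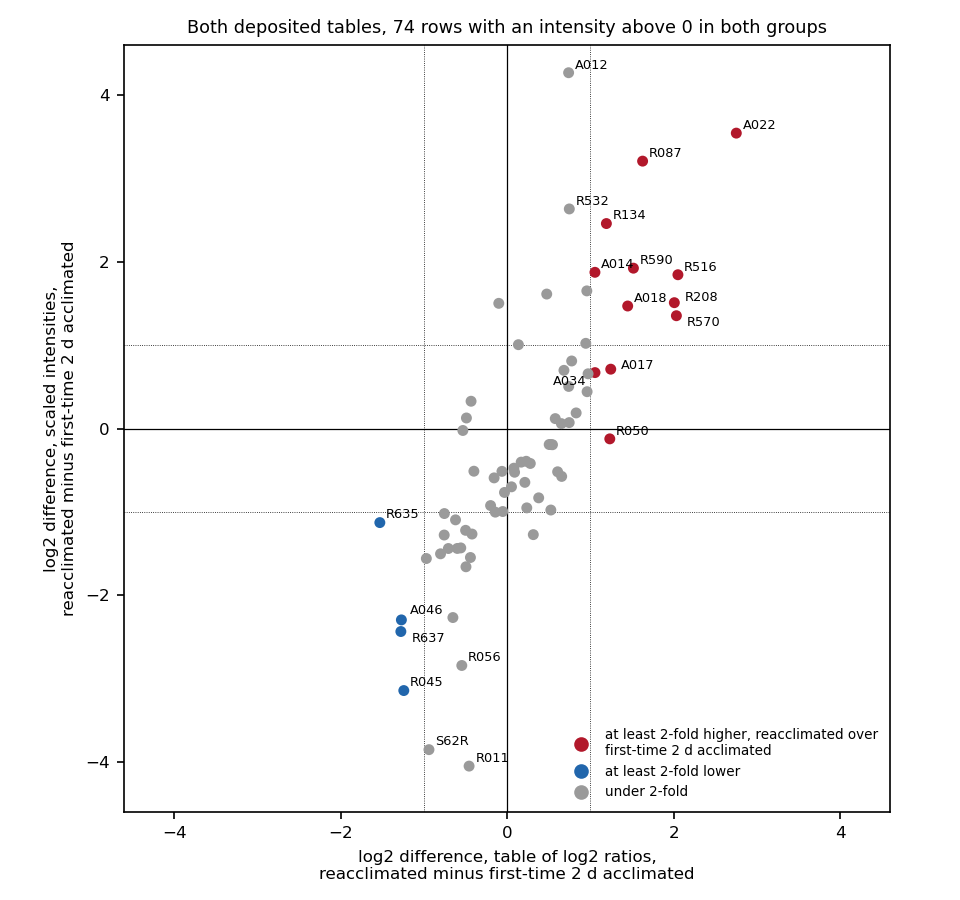
Log2 difference, reacclimated minus first-time 2 d acclimated hearts, in the table of log2 ratios (x axis) and in scaled intensities (y axis), 1 point per row for the 74 rows with an intensity above 0 in both groups. Of the 31 points left of 0 on the x axis, 21 lie at -1 or lower on the y axis, and R050 (1.23 and -0.12) is the one red point under 0.

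The 16 higher rows were not alike in the level from which the second exposure started. By log2 ratio the deacclimated level was, in 8 of them, nearer to the reacclimated level than to the first-time level. These were A022, R516, R570, R208, R177, R050, A014 and A061. In the other 8 it was nearer to the first-time level. The reacclimated and first-time levels also chose the 16 rows, and the same split was not counted over all rows. The share of 8 in 16 is therefore not shown to be particular to these rows. This split depended on the table. By scaled intensity 12 of the 16 rows had a value in all of the groups concerned, with 7 nearer to the reacclimated and 5 nearer to the first-time level, and 7 of the 12 lay on the same side in both tables. R087, R134 and A034 changed to the reacclimated side, and R208 and R050 to the first-time side. The comparisons below share samples with one another, so their values are given side by side as levels.

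A022 showed the largest difference. Its log2 ratio to the control was 2.20 in reacclimated hearts, against -0.55 in first-time acclimated hearts, a 6.73-fold difference. In deacclimated hearts it was 2.20 as well, and after 1 mo of acclimation -0.30. The difference between reacclimated and deacclimated hearts was thus 0.00. By intensity A022 stood at 13606 in reacclimated hearts, against 1606 in first-time hearts, an 8.47-fold ratio, and at 11763 in deacclimated and 1458 in control hearts. The control value of A022 is listed at -3.32 in place of 0. The same holds for A061, A034 and R724. This does not touch the difference between both groups, but makes the level against the control uncertain.

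R570 and R516 followed the same course. R570 had a log2 ratio of 2.36 in reacclimated hearts, against 0.32 in first-time hearts, and was at 2.82 in deacclimated and 0.63 in 1 mo acclimated hearts. Its intensity was 5812 after reacclimation, against 3137 at first exposure, a 1.85-fold ratio, which came to 1.36 in log2 units after scaling. R516 was at 1.78 in reacclimated hearts, against -0.27 in first-time hearts, with 1.56 in deacclimated and -0.50 in 1 mo acclimated hearts. Its intensity was 9507 in reacclimated hearts, against 3648 in first-time hearts, a 2.61-fold ratio. In all of A022, R570 and R516 the reacclimated and deacclimated groups stood at a log2 ratio of 1.56 or higher, and both groups acclimated for the first time at 0.63 or lower.

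R208, R177 and A014 had log2 ratios above the control in deacclimated hearts too. R208 stood at 2.33 in reacclimated hearts, against 0.33 in first-time hearts, with 1.37 in deacclimated hearts, so its deacclimated ratio lay between them. By scaled intensity R208 was lower in deacclimated than in control hearts, with a difference of -1.24 log2 units. Its reacclimated level was below the control there too, by -0.37 log2 units. R177 was at a log2 ratio of 1.49 in reacclimated hearts, against -0.47 in first-time hearts, with 0.70 in deacclimated hearts. Its intensity was 2045 in reacclimated and -376.1 in first-time hearts, with 6559 in deacclimated and 4518 in control hearts, so the size of its difference is uncertain and its intensities do not follow the order of its ratios. A014 was at 1.74 in reacclimated hearts, against 0.69 in first-time hearts, with 1.76 in deacclimated and 1.31 in 1 mo acclimated hearts. A014 was therefore above the control in every unstressed group that had been in the heat.

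R050 had a log2 ratio of 1.22 in reacclimated hearts, against -0.01 in first-time hearts, with a difference of -0.27 between reacclimated and deacclimated hearts. Its intensities were 7479 in reacclimated hearts, against 11248 in first-time hearts, the other way round. A061 was listed at -0.33 in reacclimated hearts, against -2.97 in first-time hearts, with -0.60 in deacclimated hearts. The first-time value of A061 lies apart at the low end of its column, its intensity was -645.3 in reacclimated and -1145 in first-time hearts, and the value -645.3 is listed for A059 and 849R as well. Without A061, 15 rows were higher.

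**Figure D3:**
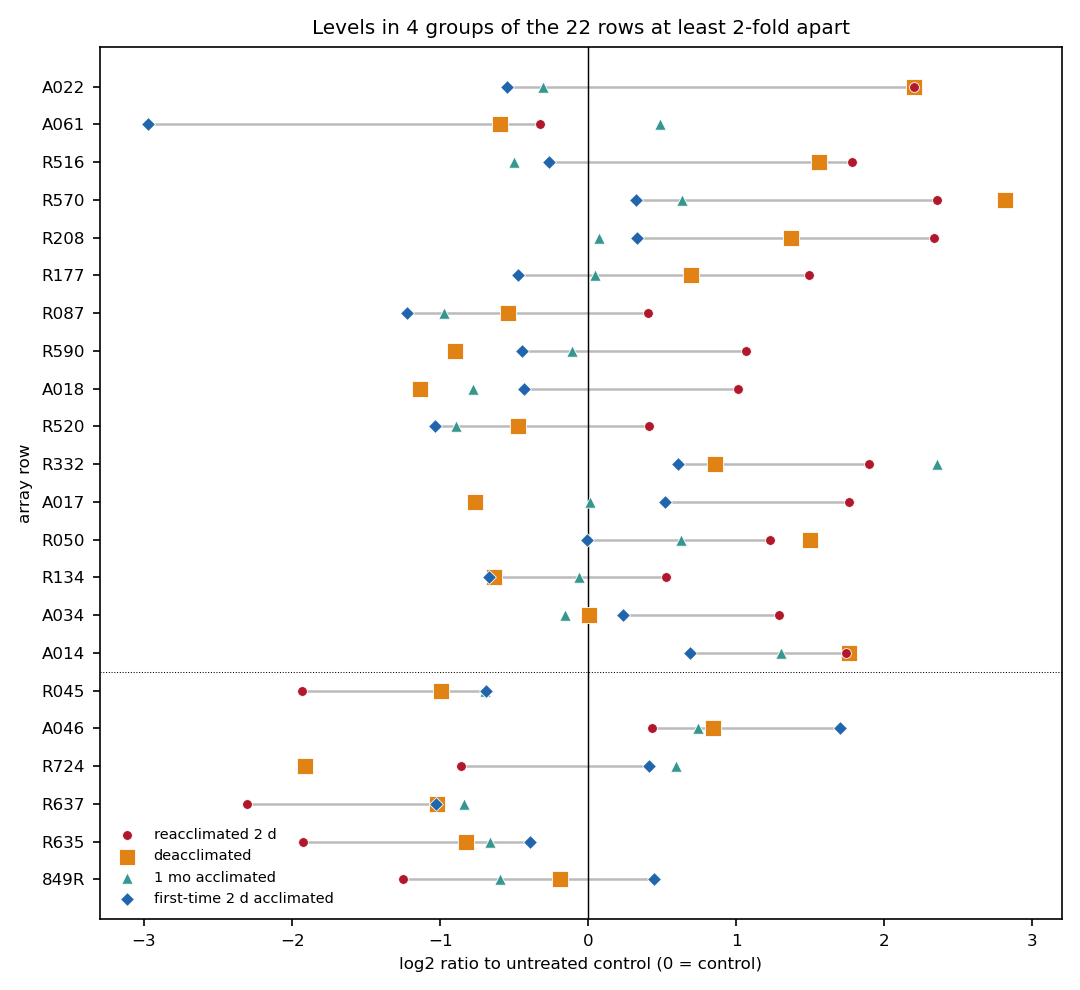
Log2 ratio to the untreated control (x axis, 0 = control) of the 22 rows at least 2-fold apart (y axis), the 16 higher ones above the dotted line, in reacclimated (circles), deacclimated (squares), 1 mo acclimated (triangles) and first-time 2 d acclimated hearts (diamonds). A grey line joins the reacclimated and the first-time level; in A022 the deacclimated square lies on the reacclimated circle at 2.20, and in A018 it lies at -1.14, beyond the first-time level of -0.44.

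In A017, A018 and R590 the deacclimated log2 ratio was the lowest of the 4 unstressed treated groups. A017 was at 1.76 in reacclimated hearts, against 0.52 in first-time hearts, with -0.76 in deacclimated hearts. By intensity A017 stood at 4761 in reacclimated hearts, against 4009 in first-time and 652.6 in deacclimated hearts, so its lead over first-time hearts was small there (1.19-fold). A018 was at 1.01 in reacclimated hearts, against -0.44 in first-time hearts, with -1.14 in deacclimated hearts. Its intensity was 1728 in reacclimated hearts, against 860.1 in first-time hearts, a 2.01-fold ratio, with 1118 in deacclimated and 492.6 in 1 mo acclimated hearts, so by intensity the deacclimated level of A018 was not the lowest. R590 was at 1.07 in reacclimated hearts, against -0.45 in first-time hearts, with -0.90 in deacclimated hearts, and its intensity was 1495 in reacclimated and 543.2 in first-time hearts. By scaled intensity the reacclimated level of A017 (-0.41), A018 (-0.95) and R590 (-2.17 log2 units) was below the control, opposite to their log2 ratios.

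By log2 ratio R087, R520 and R134 were above the control by 0.40 to 0.52 in reacclimated hearts, and below it in first-time hearts. R087 was at 0.40 in reacclimated hearts, against -1.22 in first-time hearts, with -0.54 in deacclimated and -0.97 in 1 mo acclimated hearts. Its intensity was 2041 in reacclimated hearts, against 304.2 in first-time hearts, a 6.71-fold ratio. R520 was at 0.41 in reacclimated hearts, against -1.04 in first-time hearts. R134 was at 0.52 in reacclimated hearts, against -0.67 in first-time hearts. By intensity the deacclimated and control levels stood above the reacclimated one in all of R087, R520 and R134. R087 had 9679 in deacclimated hearts, and by scaled intensity its reacclimated level was at -0.51 log2 units against the control. R520 had 1570 in reacclimated hearts, with 2126 in deacclimated and 2862 in control hearts. R134 had 2100 in reacclimated hearts, with 2831 in deacclimated and 3135 in control hearts.

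A034 and R332 complete the higher rows. A034 was at 1.29 in reacclimated hearts, against 0.23 in first-time hearts, with 0.01 in deacclimated hearts. Its intensities were 4128 in reacclimated and 4142 in deacclimated hearts, about the same. R332 was at 1.90 in reacclimated hearts, against 0.61 in first-time hearts. R332 was higher still after 1 mo of acclimation, at 2.36, with a difference of -0.46 between reacclimated and 1 mo acclimated hearts. Its intensity was -197.5 in reacclimated and -851.5 in first-time hearts.

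Among the 6 lower rows, R637 and R045 were furthest below the control. R637 was at -2.31 in reacclimated hearts, against -1.03 in first-time hearts, with -1.02 in deacclimated and -0.84 in 1 mo acclimated hearts. The other 3 levels thus lay close together, and the reacclimated one below them. By intensity R637 was 742.2 in reacclimated hearts, against 5549 in first-time hearts, a 7.48-fold ratio. R045 was at -1.93 in reacclimated hearts, against -0.69 in first-time hearts, with -0.99 in deacclimated hearts. Its intensity was 535.8 in reacclimated hearts, against 6547 in first-time hearts, 12.2-fold apart. R635 was at -1.92 in reacclimated hearts, against -0.40 in first-time hearts, with an intensity of 4898 in reacclimated hearts, against 14788 in first-time hearts, 3.02-fold apart.

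A046 differed from these in its log2 ratios, which were above the control in every unstressed treated group. It stood at 0.43 in reacclimated hearts, against 1.70 in first-time hearts, with 0.84 in deacclimated and 0.74 in 1 mo acclimated hearts, so the first-time level was the high one. Its intensity was 6772 after reacclimation, against 45957 at first exposure. 849R was at -1.25 in reacclimated hearts, against 0.44 in first-time hearts, with -0.19 in deacclimated hearts. R724 was at -0.86 in reacclimated hearts, against 0.41 in first-time hearts, and was lower still in deacclimated hearts (-1.91). Both 849R (-645.3) and R724 (-128.1) had intensities below 0 in reacclimated hearts.

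The same contrast of histories was available in 2 other samples, reacclimated and first-time acclimated hearts after heat stress. Neither sample entered the choice of the 22 rows, and the control cancels there too. Over all rows 23 were at least 2-fold higher (26.4%) and 7 at least 2-fold lower (8.05%) in stressed reacclimated hearts than in stressed first-time hearts. Of the 16 higher rows, 8 were at least 2-fold higher after heat stress as well, and 14 were above 0. Among all rows, 59 were above 0 and 28 below it, so most rows shared that sign. The median was 1.07 for the 16 rows, against 0.54 for all rows. The 8 rows were A014 (2.38), R208 (2.30), R570 (2.03), A034 (1.72), A022 (1.47), A018 (1.42), R177 (1.33) and R134 (1.29).

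The stressed first-time group was low as a whole, with a median log2 ratio of -0.26, against 0.30 in stressed reacclimated hearts. Its median intensity was 1064, against 4891, and 14 of its 87 intensities were below 0, the most of any group. In the 8 rows named above, its intensity went from -371.5 (R570) and 24.1 (R134) up to 1618 (A022). With both groups centred, 4 of the 16 rows and 9 of all 87 (10.3%) were at least 2-fold higher in stressed reacclimated hearts. At least 2-fold lower were then 1 of the 16 and 17 of all 87. Scaled intensity gave 6 of the 12 rows with a value higher by at least 2-fold, and 20 of all 73.

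R570 had a difference of 2.03 both without and after heat stress. It was at 2.42 in stressed reacclimated hearts, against 0.40 in stressed first-time hearts, and its stressed level differed from its unstressed one by 0.07 in each history. The intensity of R570 in stressed first-time hearts was -371.5, below 0, so the size of these stressed values is uncertain. R208 was at 1.75 in stressed reacclimated hearts, against -0.55 in stressed first-time hearts. A014 was at 1.40 in stressed reacclimated hearts, against -0.98 in stressed first-time hearts. Its difference after heat stress was thus larger than without it, and the stressed minus the unstressed level was -0.35 in reacclimated and -1.67 in first-time hearts. In R516, by contrast, the levels lay close together after heat stress, at 1.59 in stressed reacclimated hearts, against 1.33 in stressed first-time hearts, a difference of 0.25. The difference after heat stress was -0.06 in R087 and -0.52 in A061. A022 was at 2.16 in stressed reacclimated hearts, against 0.69 in stressed first-time hearts.

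Of the 6 lower rows, 849R was at least 2-fold lower after heat stress too, at -1.59 in reacclimated hearts, against 0.42 in first-time hearts. R637 and R724 were lower by less (both -0.55). The other 3 rows had the opposite sign, at 1.23 (R635), 0.87 (A046) and 0.42 (R045). After centring 3 of the 6 lower rows were at least 2-fold lower in the stressed pair, against 17 of all 87. By scaled intensity it was 5 of the 6, among them R635 (-1.51), against 25 of all 73. Across all 87 rows the contrast without and with heat stress had r = 0.389 and rho = 0.382, and 56 rows had the same sign. The points share array rows and no samples other than the control, which cancels.

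**Figure D4:**
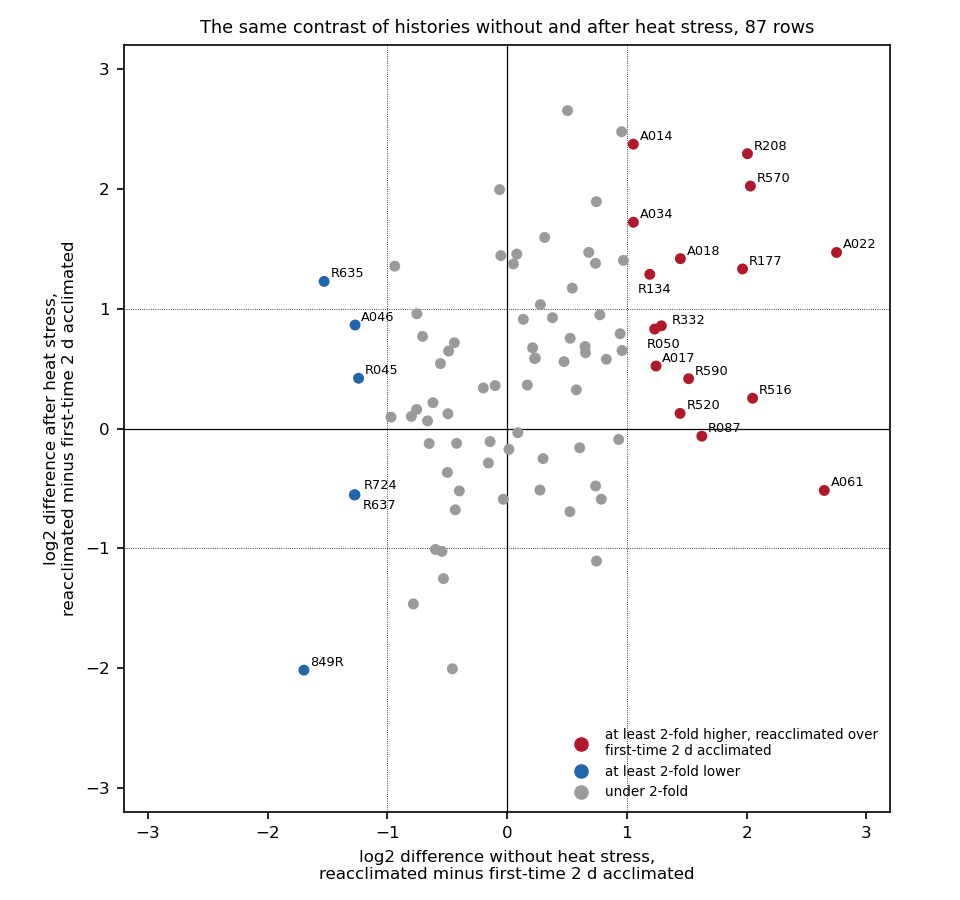
Log2 difference, reacclimated minus first-time 2 d acclimated hearts, without heat stress (x axis) and after heat stress (y axis), 1 point per row for 87 rows; dotted lines mark 2-fold. Of the 16 red rows 8 lie above 1 on the y axis, and of the 6 blue rows 849R lies below -1 and R635 above 1.

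A further way to set both histories side by side is the step made by 2 d at 34 °C. For reacclimated rats it was taken from the deacclimated group, and for first-time rats from the untreated control. The control cancels in the step of reacclimated rats, so both steps share no sample. At re-exposure 12 rows were at least 2-fold higher (13.8%) and 7 lower (8.05%) in reacclimated than in deacclimated hearts. At first exposure 11 rows (12.6%) stood above the control by that much and 6 (6.90%) below it. By log2 ratio no row was higher by 2-fold at both exposures, 0 of 12 and 0 of 11, and R637 and R523 were lower at both, 2 of 7 and 2 of 6. The intensity of R523 in first-time hearts was -641.1, below 0. That of R637 in deacclimated hearts was 3564.3, a value listed for 4 rows of that group. By log2 ratio 635R was lower at re-exposure (-1.28) and higher at first exposure (1.39). Its intensity was 2517 in first-time hearts, against 4548 in control hearts, so by intensity it was lower at first exposure. The correlation across rows was r = -0.005 (rho = 0.021, 87 rows) by log2 ratio and r = 0.141 (rho = 0.123, 74 rows) by scaled intensity.

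The 11 rows higher at first exposure were R058, A046, 14R, 635R, 755R, R546, R039, R594, A073, R519 and R198. Their log2 difference at re-exposure was between -1.28 and 0.64, with a median of -0.06. Over all 87 rows the median at re-exposure was 0.04, with quartiles of -0.28 and 0.47, so the median of the 11 was near that of all rows. Their log2 ratio to the control had a median of 1.06 in reacclimated, 1.13 in deacclimated and 1.33 in first-time hearts. By log2 ratio all 11 were above the control in deacclimated hearts, from 0.22 (R039) to 1.95 (R546). The median of all 87 rows in deacclimated hearts was 0.19, so more rows lay above the control than below it. By scaled intensity 5 of the 11 were above the control in deacclimated hearts and 6 below it. In first-time hearts 7 were above it and 4 below. By log2 ratio 52 of all 87 rows were above the control in first-time hearts and 35 below it. All rows were not counted in this way in deacclimated hearts or by scaled intensity. At re-exposure 0 of the 11 were higher by 2-fold by scaled intensity, and all rows were not counted in this way. By log2 ratio 13.8% of all 87 rows were higher by that much at re-exposure, so few of 11 rows would be. The ratios to the control share that control, whose error moves all of them together.

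**Figure D5:**
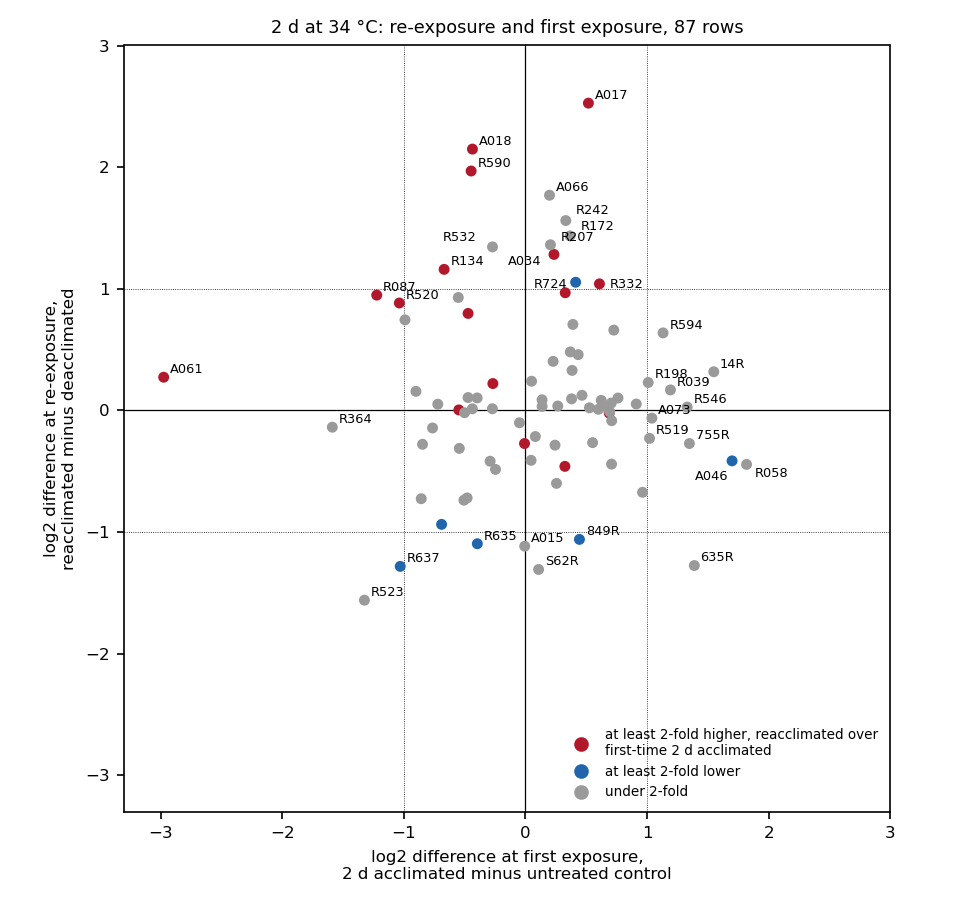
Log2 difference made by 2 d at 34 °C, at re-exposure (y axis, reacclimated minus deacclimated) and at first exposure (x axis, 2 d acclimated minus untreated control), 1 point per row for 87 rows, named where either is 2-fold or more. No point lies above 1 on both axes, and the rows beyond 1 on the x axis lie between -1.28 and 0.64 on the y axis. All 87 rows have a median of 0.04 on the y axis, with quartiles of -0.28 and 0.47.

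The 12 rows higher at re-exposure were A017, A018, R590, A066, R242, R172, R207, R532, A034, R134, R724 and R332. At first exposure they lay between -0.67 and 0.61, with a median of 0.22. The median of all rows at first exposure was 0.23, about the same. Of the 12, 10 were below the control in deacclimated hearts, with a median of -0.74, and the median in reacclimated hearts was 1.04. Both levels entered the choice of the 12 rows, so low deacclimated and high reacclimated values are built into it. Rows below the control in deacclimated hearts were not counted over all 87. Over all 87 rows the median was 0.19 in deacclimated and 0.41 in reacclimated hearts. A low deacclimated value enters the difference of the 12 rows, and R172, R724 and R332 had intensities below 0 in deacclimated hearts. By scaled intensity, of the 9 others, 3 were at least 2-fold higher in reacclimated than in deacclimated hearts (A017, R590 and R532). A further 3 were higher by less (A018, A034 and R242) and 3 were lower (A066, R207 and R134). All rows were not counted in this way. R207 was at 1.15 in reacclimated hearts, against -0.21 in deacclimated hearts, and at 0.21 in first-time hearts. Its intensity ran the other way, with 1671 in reacclimated hearts, against 3698 in deacclimated hearts. A066 was at 0.80 in reacclimated hearts, against -0.97 in deacclimated hearts, and at 0.20 in first-time hearts. Here too the intensities ran the other way, with 1665 in reacclimated hearts, against 2787 in deacclimated and 3294 in first-time hearts.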

How the data were processed

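Per the labels, total RNA of rat left ventricles was pooled and labelled with radioactive dATP by a Clontech protocol. The authors' log2 table holds, per the design text, each treatment's geometric mean over that of the control, as a normalized ratio. The deposited intensity table is on a linear scale. Normalization of the intensities, background correction, image software and choice of rows are steps not given in the sources used here. While 27 samples are counted in the design text, the tables analysed hold 9 values per row, 1 per group.

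Differences of log2 ratios were computed per row, with the control taken as 0, and rows at least 2-fold apart were counted. No test was run. Intensities above 0 were put on the log2 scale and scaled by subtracting the sample's median of 59 rows, those above 0 throughout the series. Named rows are all rows past 2-fold, the 3 just outside in each direction and the 5 smallest differences, and rows past 2-fold at either exposure. The members and rules were chosen with earlier results of these data known. The planned gene lists could not be applied, since no row has a gene. Counting was tested on simulated data. Software was pandas 2.3.3 with numpy 2.4.6, run in Python 3.11.15, and figures came from matplotlib 3.10.9.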

Additional observations from a re-analysis of the deposited data

Results flagged for a closer look

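Of the 22 rows, 5 had opposite signs without and after heat stress in the contrast of reacclimated with first-time acclimated hearts. With 1 value per group, none of these differences was tested. The log2 difference after heat stress was 1.23 for R635, against -1.53 without it. It was 0.87 for A046 (-1.27 without heat stress) and 0.42 for R045 (-1.24). By scaled intensity the difference after heat stress was -1.51 for R635 and -1.81 for R045, the same sign as without it, and after centring that of R045 was -0.14. Among the higher rows it was -0.52 for A061 (2.65 without heat stress) and -0.063 for R087 (1.63).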

How the results depend on the processing

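For reacclimated against first-time acclimated hearts, the count of higher rows was 10 once the dimmest 25% of rows were left out and lay between 12 and 16 under the alternatives that kept the 2-fold threshold otherwise. The rows behind these counts changed. By scaled and by quantile-normalized intensity 9 of the 16 rows stayed among the 16 counted, and by unscaled intensity 8 stayed among 13. A threshold of 1.5-fold gave 32 higher and 17 lower rows, and 3-fold gave 7 and 1. The count of lower rows was 22 by scaled intensity, 32 by unscaled intensity and 16 after quantile normalization of the intensities, an alternative chosen after seeing the data. The median difference was 0.055 after centring, -0.45 by scaled, -0.91 by unscaled and -0.035 by quantile-normalized intensity. The root mean square difference was 0.97, against 1.58, 1.70 and 1.58 by scaled, unscaled and quantile-normalized intensity. R050 had the opposite sign by scaled (-0.12) and unscaled intensity (-0.59). After heat stress, centring gave 9 higher and 17 lower rows, scaled intensity 25 lower, unscaled intensity 40 higher, and leaving out the dimmest rows 3 lower. The order of deacclimated against other levels in single rows changed with the table in some rows, by alternatives chosen after seeing the data, as given beside those rows. The cause was not tested. Without replicates, the error of any difference is unknown, and rows with an intensity below 0 have no reliable size.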
